A study of Mus musculus with 69 samples.

Results

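The genes that present peptides on MHC class I molecules were followed through 3 mouse experiments on TLR7 (Toll-like receptor 7), which senses single-stranded RNA in endosomes. The set held 10 genes taken by symbol, and it was chosen with earlier results of these data known. It held the light chain gene B2m, the heavy chain genes H2-D1, H2-K1 and H2-T23, and the transporter genes Tap1 and Tap2. The others were the tapasin gene Tapbp, the immunoproteasome genes Psmb8 and Psmb9, and the transactivator gene Nlrc5. All 10 were found in each count table, among 54532 rows in the agonist and microglia experiments and 54429 rows in the inhibitor experiment. All 10 also passed the filter on low counts, among 17218, 14468 and 17128 genes tested.

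In the agonist experiment, hippocampi came from wild-type (WT) mice given gardiquimod, a small-molecule TLR7 agonist, or saline, with 7 libraries in each group. The males were 12.12 months old and the females 9.60 months, so sex and age cannot be told apart there. In the microglia experiment, primary microglia of postnatal day 1 to 3 pups, labelled TLR7:-/- (KO) or WT, received myelin or DMSO, with 3 libraries in each of 8 groups by sex, genotype and treatment. The inhibitor experiment used hippocampi of 6 males and 5 females given an unnamed TLR7 inhibitor and of 3 male and 3 female controls, all labelled PSUK+, a genotype left undescribed in the labels. These mice were 5.50, 6.06 or 6.85 months old, where 1 age stood without a unit and was read as months. The labels describe the RNA of every library as nuclear RNA from microglia, also for the libraries labelled hippocampus.

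MHC class I molecules are built from a heavy chain, B2m and a short peptide, and they show the peptides made inside a cell to CD8 T cells. Proteasomes cut proteins into these peptides, the TAP transporter carries them into the endoplasmic reticulum, and tapasin holds the empty heavy chain at the transporter until a peptide fits. Interferons raise the whole set in many cell types, through Nlrc5, which acts at the heavy chain and B2m promoters, and through interferon regulatory factors. In the healthy brain class I levels are low in neurons and higher in microglia and endothelium.

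The promoters of the genes whose changes are described most fully are shown because elements of interferon signalling and of the class I enhancer are known from this gene set. Each is the 200 bases before a RefSeq transcription start in GRCm38.p6, which for H2-D1 and H2-T23 lies inside the gene span of the count tables, written 5′ to 3′ on the gene's own strand. Capitals mark the matches, on either strand, to 6 short motifs: the interferon-stimulated response element (ISRE) cores GAAANNGAA and GAANNGAAA, the interferon-gamma activated site core TTCNNNGAA, the NF-kB site, the Y box core CCAAT and the X2 box core TGACG. The core GAANNGAAA was added after the promoters had been read.
B2m (chr2:122147487-122147686, plus strand): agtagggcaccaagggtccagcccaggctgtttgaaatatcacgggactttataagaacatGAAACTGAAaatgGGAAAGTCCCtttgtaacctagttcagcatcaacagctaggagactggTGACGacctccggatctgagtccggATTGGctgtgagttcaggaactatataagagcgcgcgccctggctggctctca
H2-D1 (chr17:35262894-35263093, plus strand): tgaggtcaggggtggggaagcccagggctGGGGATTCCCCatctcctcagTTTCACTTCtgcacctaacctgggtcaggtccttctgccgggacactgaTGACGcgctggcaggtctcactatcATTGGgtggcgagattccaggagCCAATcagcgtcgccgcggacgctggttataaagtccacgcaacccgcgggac
H2-K1 (chr17:34000334-34000533, minus strand): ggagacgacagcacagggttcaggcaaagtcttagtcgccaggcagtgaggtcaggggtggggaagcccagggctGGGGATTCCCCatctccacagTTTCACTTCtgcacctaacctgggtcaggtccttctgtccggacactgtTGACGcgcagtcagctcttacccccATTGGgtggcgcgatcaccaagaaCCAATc
H2-T23 (chr17:36032702-36032901, minus strand): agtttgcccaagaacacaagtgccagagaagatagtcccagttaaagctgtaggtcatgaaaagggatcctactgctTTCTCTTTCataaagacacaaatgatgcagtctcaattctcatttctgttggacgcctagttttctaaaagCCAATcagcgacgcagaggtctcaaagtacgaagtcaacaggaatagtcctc
Tap1 (chr17:34187356-34187555, plus strand): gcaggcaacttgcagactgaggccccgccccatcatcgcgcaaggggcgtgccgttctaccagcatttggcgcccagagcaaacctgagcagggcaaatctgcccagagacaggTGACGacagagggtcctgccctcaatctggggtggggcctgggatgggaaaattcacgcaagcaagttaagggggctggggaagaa

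In windows of 250 bases before to 50 after the start, the table held 8 of the 10 genes (not Tap2 or Nlrc5) and 9 windows, since H2-K1 had 2 starts. GAAANNGAA was present in 2 of these 9 windows, in B2m at bases -139 to -131 and in H2-T23 on the minus strand at -123 to -115, against 8.56% of all 32851 promoters. GAANNGAAA was present in H2-D1 at -150 to -142, on the minus strand, and in both H2-K1 windows. It occurred in 7.52% of all promoters, but it was chosen after these promoters had been read, so that share tests nothing. The NF-kB site lay in 4 of 9 windows (B2m, H2-D1 and both of H2-K1) against 4.51% of promoters, and overlapped no ISRE core. TTCNNNGAA occurred in the Psmb8 window alone among the 9, against 8.3% of promoters. CCAAT was found in 8 windows against 37.4% of promoters, and TGACG in 6 windows against 20.8%. The H2-D1 and H2-K1 promoters printed above matched at 130 of 154 aligned bases (84.4%), and their longest identical run was 46 bases. Tap1 and Psmb9 lie head to head, and their windows shared 275 bases, so their CCAAT and TGACG matches are the same bases. With H2-K1 also counted in 2 windows, the window counts are not independent. A match describes the letters in the window and is not evidence of binding.

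By the coordinates in the count tables (GRCm38), B2m (ENSMUSG00000060802, chr2:122147686-122153083, plus strand) and Nlrc5 (ENSMUSG00000074151, chr8:94434356-94527272, plus strand) lie on chromosomes of their own, and the other 8 genes lie on chromosome 17. From the lowest coordinate these were Tapbp (ENSMUSG00000024308, chr17:33915899-33929288, plus strand), H2-K1 (ENSMUSG00000061232, chr17:33996017-34000333, minus strand), Psmb9 (ENSMUSG00000096727, chr17:34181988-34187764, minus strand), Tap1 (ENSMUSG00000037321, chr17:34187553-34197225, plus strand) and Psmb8 (ENSMUSG00000024338, chr17:34197721-34201454, plus strand). Further along were Tap2 (ENSMUSG00000024339, chr17:34203527-34216321, plus strand), H2-D1 (ENSMUSG00000073411, chr17:35262730-35267499, plus strand) and H2-T23 (ENSMUSG00000067212, chr17:36029773-36032855, minus strand). Counts came from 3′ tags, so the values of genes with alike 3′ ends can be split between them. In the last 400 bases of the longest coding transcript, 6 of 36 windows of 50 bases in H2-D1 and 14 of 36 in H2-T23 also occurred in another gene. That was so for 0 of 36 in each of the other 8 genes, and 1 of the H2-D1 windows was shared with H2-K1. Tapbp overlaps Zbtb22 on its own strand, and Tap1 overlaps Psmb9 on the opposite strand. Whether strand was used in counting is not given in the sources used here, which bears on Tap1 and Psmb9. Their overlap lies at the 5′ ends of both genes, away from the ends that 3′ tags read. The values of H2-D1 and H2-T23 are uncertain through the shared windows, and that of Tapbp through the overlap on its own strand.

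Libraries held 14332532 to 23477906 counts in the agonist, 15277642 to 21275491 in the microglia and 14377831 to 21033158 in the inhibitor experiment. Levels are counts-per-million values (CPM) with TMM scaling and their standard deviation (SD), and changes are log2 fold changes with their standard error (SE) from edgeR's quasi-likelihood test. Adjusted p-values follow Benjamini and Hochberg, taken over every gene tested in a comparison, and a gene with one under 0.05 was called. The labels name no separate animal or culture for a library, so p-values measure the spread between libraries. Tlr7 stood at 1.25 to 2.76 CPM in KO cultures and at 167 to 197 CPM in WT cultures. Of the microglia markers chosen for this work, 7 of 7 were detected in every group, with summed levels of 2466 to 3773 CPM in the cultures. In the cultures, 4 to 6 of 8 blood cell markers were at 0 in a group.

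Gardiquimod raised light and heavy chain genes in hippocampus, while edgeR called no loading, proteasome or transactivator gene of the set in either sex. In males 4 of the 10 genes rose (B2m, H2-D1, H2-K1 and H2-T23), against 0.168% of all 17218 genes called higher. In females 2 of 10 rose (B2m and H2-D1), against 0.0232% of all genes. With the sexes averaged the same 4 genes as in males rose, against 0.215% of all genes. The median change of the 10 genes was 0.48 in males, 0.40 in females and 0.44 averaged, where the medians over all genes were -0.01, 0.01 and -0.01.

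B2m, the light chain shared by all class I molecules, was 109 to 138 CPM (median 127) in gardiquimod males and 73.02 to 99.3 CPM (median 87.8) in saline males. Every gardiquimod male stood above every saline male. The means were 126 ± 10.5 CPM with gardiquimod and 86.4 ± 10.1 CPM with saline (SD, n = 7 each), a change of 0.55 ± 0.08 (adjusted p = 0.000424). In females B2m was 117 to 151 CPM (median 137) with gardiquimod and 86.8 to 116 CPM (median 100.3) with saline. The female groups were apart as well, though the lowest gardiquimod library and the highest saline library nearly met. The female change was 0.44 ± 0.08 (adjusted p = 0.0121), and the change averaged over the sexes was 0.50 ± 0.05 (adjusted p = 1.45e-06).

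H2-D1, a classical heavy chain gene, was 64.3 to 93.5 CPM (median 79.8) in gardiquimod females and 38.3 to 61.4 CPM (median 54.9) in saline females. These groups did not overlap, and the change was 0.59 ± 0.11 (adjusted p = 0.0485). In males H2-D1 was 54.03 to 94.2 CPM (median 73.1) with gardiquimod and 38.9 to 55.97 CPM (median 45.1) with saline. The male groups overlapped at their edges, with a change of 0.56 ± 0.11 (adjusted p = 0.0262). H2-K1, the other classical heavy chain gene here, was 47.3 to 73.7 CPM (median 60.5) in gardiquimod males and 33.5 to 49.4 CPM (median 43.96) in saline males. These ranges met only at their ends, and the change was 0.52 ± 0.10 (adjusted p = 0.0254). In females H2-K1 averaged 62.4 ± 6.26 CPM with gardiquimod and 45.9 ± 8.56 CPM with saline (SD, n = 7 each). That female change, 0.44 ± 0.10 (adjusted p = 0.271), missed the threshold.

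H2-T23 encodes the nonclassical heavy chain Qa-1, which presents leader peptides of other class I chains to receptors on natural killer cells. It was 13.9 to 21.3 CPM (median 17.4) in gardiquimod males and 9.14 to 12.7 CPM (median 10.5) in saline males. The male groups did not overlap, and the change of 0.68 ± 0.12 (adjusted p = 0.00966) was the largest of the 10 genes in males. In females it averaged 17.9 ± 2.80 CPM with gardiquimod and 12.5 ± 2.66 CPM with saline (SD, n = 7 each), a change of 0.51 ± 0.12 (adjusted p = 0.271) with overlapping groups. Averaged over the sexes, the change of H2-D1 was 0.58 ± 0.08, that of H2-K1 0.48 ± 0.07 and that of H2-T23 0.60 ± 0.09 (largest adjusted p of the 3 = 0.000451).

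The 6 genes of peptide supply and control were not called by edgeR in either sex, where DESeq2 called 5 of the 10 genes in males, Tapbp added, and 4 in females. Tap1, which with Tap2 forms the peptide transporter, averaged 6.48 ± 1.82 CPM in gardiquimod males and 4.75 ± 1.05 CPM in saline males, a change of 0.45 ± 0.16 (adjusted p = 0.167). Tap2 averaged 8.53 ± 1.33 CPM with gardiquimod and 8.22 ± 1.54 CPM with saline in males, and its 95% confidence interval for the change was -0.18 to 0.28. Tap2 had the smallest estimated change of the 10, also in females, where the interval was -0.23 to 0.22. Tapbp, whose product tapasin edits the bound peptides, differed by 0.34 ± 0.08 (adjusted p = 0.0642) in males and 0.08 ± 0.08 (adjusted p = 0.87) in females. In males edgeR called Tapbp without saline replicate 2, 3 or 5 or gardiquimod replicate 4, and Tap1 without gardiquimod replicate 4. Psmb8, an inducible catalytic subunit that replaces a standard one in the immunoproteasome, differed by 0.38 ± 0.13 (adjusted p = 0.172) in males and 0.22 ± 0.13 (adjusted p = 0.8) in females. Psmb9, another such subunit, differed by 0.24 ± 0.17 (adjusted p = 0.483) in males and 0.29 ± 0.16 (adjusted p = 0.8) in females. Nlrc5, the class I transactivator, had the fewest counts, 16 to 62 in a gardiquimod male and 11 to 26 in a saline male. Its difference of 0.63 ± 0.29 in males and 0.67 ± 0.29 in females was as large as that of the heavy chains, with a wider error (adjusted p = 0.288 and 0.791). At an unadjusted p under 0.05, 8 of the 10 genes in males and 6 in females were higher, against 2722 and 1044 of all genes in either direction.

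**Figure D1:**
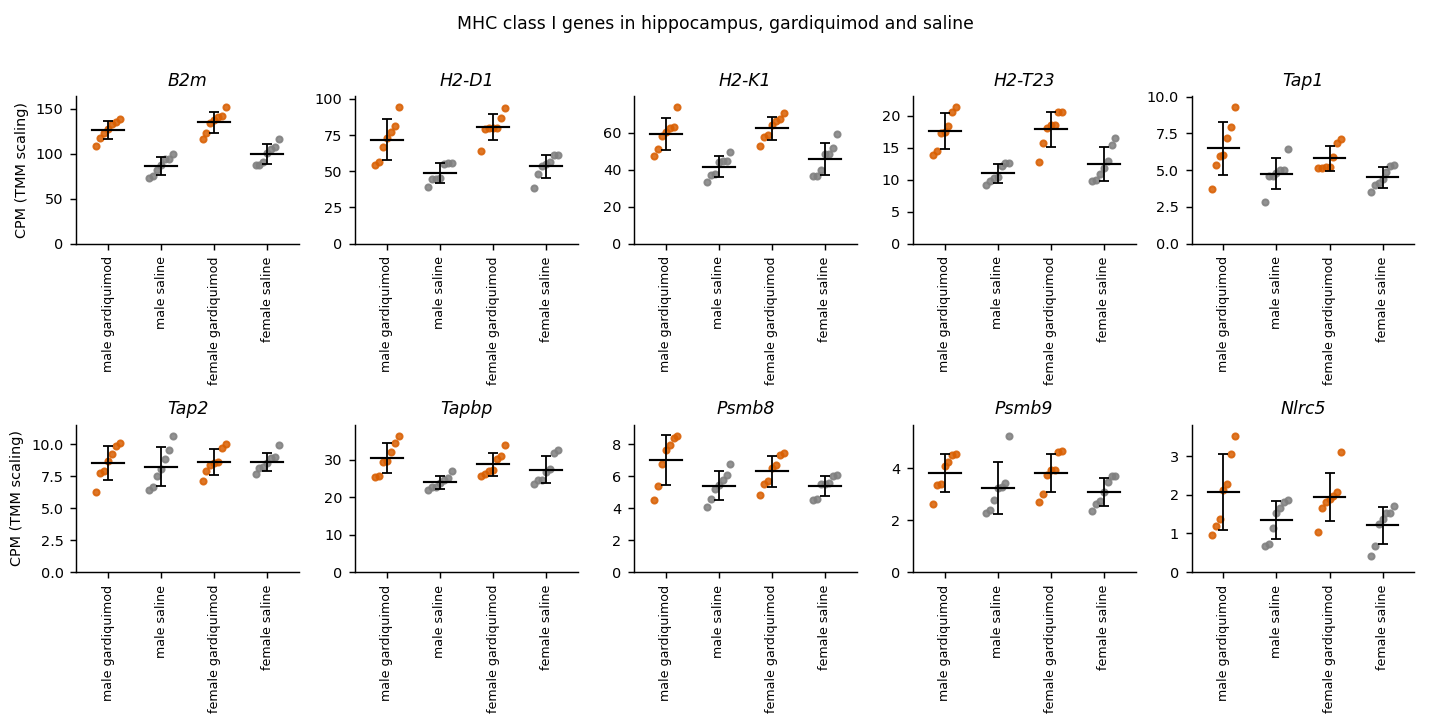
CPM of each gene in hippocampus libraries of gardiquimod and saline mice by sex; each point is a library, ordered by value within its group, and bars are mean ± SD (n = 7). B2m points do not overlap between treatments in either sex, and Tap2 points cover the same range with gardiquimod and saline.

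No sex difference in the response was called by edgeR for these genes, against 0.00581% of all genes called either way. At an unadjusted p under 0.05 there was 1, Tapbp, with a female minus male difference of -0.27 ± 0.12 (adjusted p = 0.267), and DESeq2 called 0. For B2m the 95% interval of the difference was -0.32 to 0.12, and for H2-D1 it was -0.30 to 0.36.

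Microglia markers summed to 346 to 432 CPM with gardiquimod and 316 to 420.1 CPM with saline, with all 7 detected. Blood cell markers summed to 0.445 to 12.3 CPM with gardiquimod and 2.29 to 7.12 CPM with saline, with all 8 detected. In tissue libraries such as these, more cells of a type and more RNA per cell cannot be told apart. Choroid plexus markers, 5 of 5 detected, varied widely, with 1212 to 4959 CPM in gardiquimod and 151 to 3989 CPM in saline males, and 41.2 to 5825 CPM in gardiquimod and 127 to 5220.4 CPM in saline females. Their mean sums were 3230.2 CPM in gardiquimod and 1282 CPM in saline males, and 3690.1 CPM in gardiquimod and 2170.5 CPM in saline females, so they were higher with gardiquimod on average in both sexes, with overlapping ranges. When Ttr, a transcript of the choroid plexus, was added as a covariate, B2m was the 1 gene called in each sex, and all 4 were called in the average. The male count fell to 2 without saline replicate 1 or 6, or gardiquimod replicate 2, 5 or 7. The female count fell to 0 without saline replicate 1, 2, 5 or 7 or gardiquimod replicate 2, and to 1 without saline replicate 3 or gardiquimod replicate 1, 4, 5, 6 or 7. In the average, the 4 genes were called in 32 of 32 alternatives.

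Among 21 tested genes of a list of other class I pathway genes, 1 rose in males, H2-Q4, a nonclassical heavy chain gene, at 0.79 ± 0.16 (adjusted p = 0.0181). In females H2-Q4 differed by 0.47 ± 0.15 (adjusted p = 0.73). Averaged over the sexes 2 of 21 rose, H2-Q4 by 0.63 ± 0.11 and H2-T22, another such gene, by 0.23 ± 0.04. The list's median change was 0.14 in males and 0.11 in females. Of 21 tested regulators of interferon signalling, 1 rose in each sex, Irf7, and 3 in the average, with a median change of 0.06 in males and 0.04 in females. Irf9, which encodes a part of the complex that carries the type I interferon signal to the nucleus, changed by 0.49 ± 0.08 (adjusted p = 0.00152) in the average.

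Myelin raised the class I genes in cultured microglia of both genotypes. Against DMSO, 5 of 10 genes rose in male KO microglia (18% of all 14468 genes were called higher) and 8 of 10 in female KO microglia (20.8%). In male WT microglia 9 of 10 rose (20%) and in female WT microglia 9 of 10 (19.3%). The median change of the 10 genes was 0.24 in male KO, 0.58 in male WT, 0.46 in female KO and 0.45 in female WT microglia, where the medians of all genes lay between -0.01 and 0.01. The myelin and the knockout comparisons draw on the same 24 libraries, so their values are given side by side and are not independent.

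Tapbp had the largest estimated change of the 10 genes in all 4 myelin comparisons. In male KO microglia Tapbp stood at 412, 394 and 375 CPM with myelin and at 216, 238 and 303 CPM with DMSO. In male WT microglia it stood at 539, 498 and 541 CPM with myelin and at 289.7, 305 and 264 CPM with DMSO. The groups were apart in both genotypes, and male KO DMSO replicate 3 was the highest of its group. Tapbp rose by 0.64 ± 0.10 (adjusted p = 7.60e-05) in male KO and by 0.88 ± 0.10 (adjusted p = 1.74e-06) in male WT microglia. The female changes were 0.80 ± 0.10 in KO and 0.77 ± 0.10 in WT microglia.

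The chain genes B2m, H2-D1 and H2-K1 rose in all 4 comparisons, and all myelin libraries lay above all DMSO libraries of the same sex and genotype. In male KO microglia H2-K1 stood at 923, 901 and 888 CPM with myelin and at 720.3, 738 and 863 CPM with DMSO. These KO groups were close, with DMSO replicate 3 just under the lowest myelin library. H2-K1 stood at 1182, 1094 and 1122 CPM with myelin and at 708, 735 and 697 CPM with DMSO in male WT microglia. These WT groups were far apart. The H2-K1 changes were 0.22 ± 0.05 in male KO, 0.67 ± 0.05 in male WT, 0.30 ± 0.05 in female KO and 0.53 ± 0.05 in female WT microglia. B2m rose by 0.24 ± 0.05, 0.49 ± 0.05, 0.30 ± 0.05 and 0.39 ± 0.05 in the same order. H2-T23 rose by 0.58 ± 0.13 (adjusted p = 0.00179) in female KO, 0.71 ± 0.13 (adjusted p = 0.000269) in male WT and 0.58 ± 0.13 (adjusted p = 0.00167) in female WT microglia. In male KO microglia its change of 0.34 ± 0.13 (adjusted p = 0.0541) missed the threshold, where DMSO replicate 3 at 183 CPM stood above all 3 myelin libraries.

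Peptide supply genes divided. Psmb8 rose in every comparison, by 0.39 ± 0.05 in male KO, 0.56 ± 0.05 in male WT, 0.62 ± 0.05 in female KO and 0.42 ± 0.05 in female WT microglia (largest adjusted p = 2.21e-09). Psmb9, which works in the same complex, was called in none of the 4 by edgeR, with changes between -0.06 and 0.13 and overlapping groups throughout. The 95% interval of its change was -0.07 to 0.31 in female KO and -0.22 to 0.15 in female WT microglia. Tap1 rose by 0.69 ± 0.15 (adjusted p = 0.000993) in female KO, 0.60 ± 0.14 (adjusted p = 0.00186) in male WT and 0.49 ± 0.14 (adjusted p = 0.00943) in female WT microglia. Its change in male KO microglia was 0.25 ± 0.15 (adjusted p = 0.221). Tap2 rose by 0.28 ± 0.06 in male WT and 0.23 ± 0.06 in female WT microglia, and differed by 0.02 ± 0.06 (adjusted p = 0.853) in male KO and 0.13 ± 0.06 (adjusted p = 0.104) in female KO microglia. Nlrc5 rose by 0.67 ± 0.13 (adjusted p = 0.000554) in female KO, 0.39 ± 0.13 (adjusted p = 0.0203) in male WT and 0.38 ± 0.13 (adjusted p = 0.0245) in female WT microglia, and in male KO microglia the change was 0.33 ± 0.13 (adjusted p = 0.069).

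**Figure D2:**
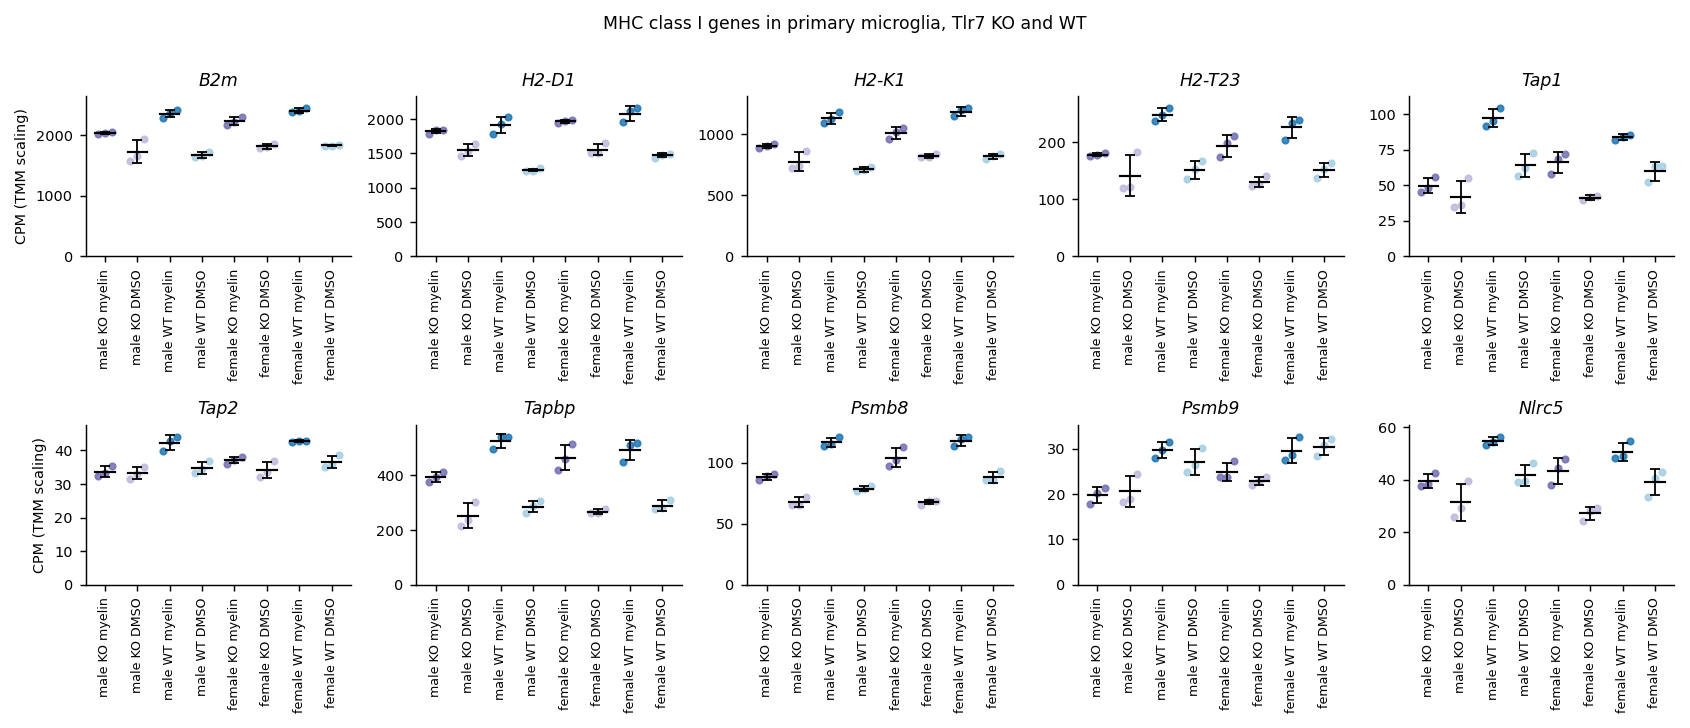
CPM of each gene in primary microglia by sex, genotype and treatment; each point is a library, ordered by value within its group, and bars are mean ± SD (n = 3). Myelin groups stand above their DMSO groups for B2m, H2-D1, H2-K1, Tapbp and Psmb8, and Psmb9 points overlap between myelin and DMSO in every sex and genotype.

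Summed microglia markers, 7 of 7 detected, were 2466 to 2822 CPM in myelin and 3368 to 3773 CPM in DMSO cultures. Summed oligodendrocyte markers, 5 of 5 detected, were 424 to 689 CPM in myelin and 180.3 to 295 CPM in DMSO cultures. Their part in these results was not tested. In the male KO comparison 8 genes were called without DMSO replicate 3, and 3 in a fit of the male KO groups alone. With the levels of Ttr and Pdgfra, an oligodendrocyte precursor gene, as covariates, 2 genes were called in female KO microglia, Tapbp and Psmb8. Pdgfra stood at 5.83 to 8.43 CPM in female KO myelin and 12.8 to 14.2 CPM in female KO DMSO cultures. It separated these groups, so its part and that of myelin cannot be told apart there.

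Of the other class I pathway genes, 12 of 22 tested rose with myelin in male KO, 13 in female KO, 16 in male WT and 13 in female WT microglia. The median change of these 22 was 0.38 in male KO, 0.32 in female KO, 0.42 in male WT and 0.40 in female WT microglia. In both KO comparisons 1 gene fell, Cd1d1, which presents lipids, at -0.26 ± 0.09 in male and -0.28 ± 0.09 in female KO microglia. The largest rises were those of the nonclassical genes H2-M2, at 2.54 ± 0.22 in male KO and 3.61 ± 0.23 in male WT microglia, and H2-Q7, at 1.86 ± 0.20 and 2.70 ± 0.19. The H2-Q genes are near-identical copies, so reads may be divided among them and H2-Q6 and H2-Q7 are uncertain. The chaperone gene Calr rose in all 4 comparisons, by 0.75 in male KO, 0.64 in male WT, 0.74 in female KO and 0.60 in female WT microglia. So did Pdia3, a disulfide isomerase of the loading complex, by 0.34, 0.27, 0.31 and 0.26, and Erap1, which trims peptides, by 0.29, 0.34, 0.33 and 0.36. Of 20 tested regulators, 4 rose and 7 fell in male KO, 8 and 9 in female KO, 7 and 7 in male WT and 6 and 9 in female WT microglia. Over all genes 20.2% were called lower in male KO, 20.4% in female KO, 19.4% in male WT and 21.1% in female WT microglia, beside the shares called higher given above, so the share of regulators that rose was near that of all genes in male KO. The regulators' changes had medians between -0.09 and -0.03. Irf1, an activator of class I promoters, fell in all 4, at -0.76 ± 0.08 in male KO, -0.37 ± 0.08 in male WT, -0.63 ± 0.08 in female KO and -0.60 ± 0.08 in female WT microglia.

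Loss of Tlr7 was tested by setting KO against WT microglia within each sex and treatment. In DMSO cultures of both sexes Tap1, Psmb8, Psmb9 and Nlrc5 were lower in KO microglia. In males 4 of 10 genes were lower (9.32% of all genes were called lower) and 1, H2-D1, was higher (11.6% were called higher). In females 4 of 10 were lower (6.48%). With myelin, 9 of 10 genes were lower in male KO microglia (10.6%), with H2-D1 the exception, and 3 of 10 in female KO microglia (3.48%). The median of the 10 changes was -0.14 in male and -0.17 in female DMSO cultures, -0.41 in male and -0.21 in female myelin cultures, against medians of all genes between -0.01 and 0.01.

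Tap1 showed the largest estimated difference of the 10 in all 4 comparisons, given as the log2 fold change of KO over WT. In male myelin cultures it stood at 48.03, 55.7 and 45.6 CPM in KO and at 104, 91.8 and 95.7 CPM in WT microglia. In male DMSO cultures it stood at 34.7, 35.9 and 55.02 CPM in KO and at 62.6, 72.8 and 56.7 CPM in WT microglia. KO libraries lay below WT libraries in both, by a narrow gap with DMSO. Tap1 was lower in KO at -0.97 ± 0.14 (adjusted p = 7.00e-05) with myelin and -0.61 ± 0.15 (adjusted p = 0.00612) with DMSO in males. In females the DMSO value was -0.54 ± 0.15 (adjusted p = 0.0232), and the myelin value of -0.34 ± 0.14 (adjusted p = 0.187) missed the threshold although the groups did not overlap. Over the 8 groups Tap1 was highest in male WT myelin cultures at 97.2 ± 6.42 CPM and next in female WT myelin cultures at 83.99 ± 1.89 CPM. It was lowest in female KO DMSO cultures at 41.3 ± 1.66 CPM and male KO DMSO cultures at 41.9 ± 11.4 CPM (SD, n = 3 each). These last groups overlapped.

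Psmb8 was lower in KO microglia in all 4 comparisons and Psmb9 in 3. Psmb8 stood at 68.9, 65.5 and 68.7 CPM in KO and at 93.1, 85.5 and 85.6 CPM in WT microglia of females with DMSO. The groups were clearly apart, with a change of -0.38 ± 0.05 (adjusted p = 2.36e-08). The other 3 changes of Psmb8 were -0.22 ± 0.05 in male DMSO, -0.40 ± 0.05 in male myelin and -0.18 ± 0.05 in female myelin cultures. Psmb9 stood at 21.2, 20.2 and 17.8 CPM in KO and at 29.6, 31.6 and 27.98 CPM in WT microglia of males with myelin. These groups did not overlap, and the change was -0.60 ± 0.09 (adjusted p = 4.29e-06). Psmb9 was also lower with DMSO, at -0.40 ± 0.09 in males and -0.41 ± 0.09 in females, and its value in female myelin cultures was -0.25 ± 0.09 (adjusted p = 0.0848). Nlrc5 was lower in KO at -0.41 ± 0.13 (adjusted p = 0.0405) in male DMSO, where the groups overlapped, -0.52 ± 0.14 (adjusted p = 0.0182) in female DMSO and -0.48 ± 0.13 (adjusted p = 0.0127) in male myelin cultures. In female myelin cultures the Nlrc5 change was -0.22 ± 0.13 (adjusted p = 0.38).

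Among the 4 chain genes, H2-D1 in males was the only called difference in DMSO cultures. In DMSO cultures B2m differed between KO and WT by 0.04 ± 0.05 (adjusted p = 0.62) in males and -0.01 ± 0.05 (adjusted p = 0.917) in females. H2-D1 was higher in male KO DMSO microglia, at 1538, 1466 and 1643 CPM against 1246, 1282 and 1251 CPM in male WT microglia. The groups were apart and the change was 0.30 ± 0.05 (adjusted p = 0.000127). In male myelin cultures KO was lower for H2-K1, at -0.32 ± 0.05 (adjusted p = 0.000161), for H2-T23, at -0.48 ± 0.13 (adjusted p = 0.0138), and for B2m, at -0.21 ± 0.05 (adjusted p = 0.00497). H2-D1 there was 1845, 1791 and 1848 CPM in KO and 2027, 1787 and 1923 CPM in WT microglia, which overlapped, with a change of -0.07 ± 0.05 (adjusted p = 0.399). H2-K1 was also lower in female KO myelin microglia, at -0.23 ± 0.05 (adjusted p = 0.00844). Tap2 was lower in KO with myelin in both sexes, at -0.33 ± 0.06 in males and -0.20 ± 0.06 in females, and Tapbp in male myelin cultures, at -0.42 ± 0.10.

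**Figure D3:**
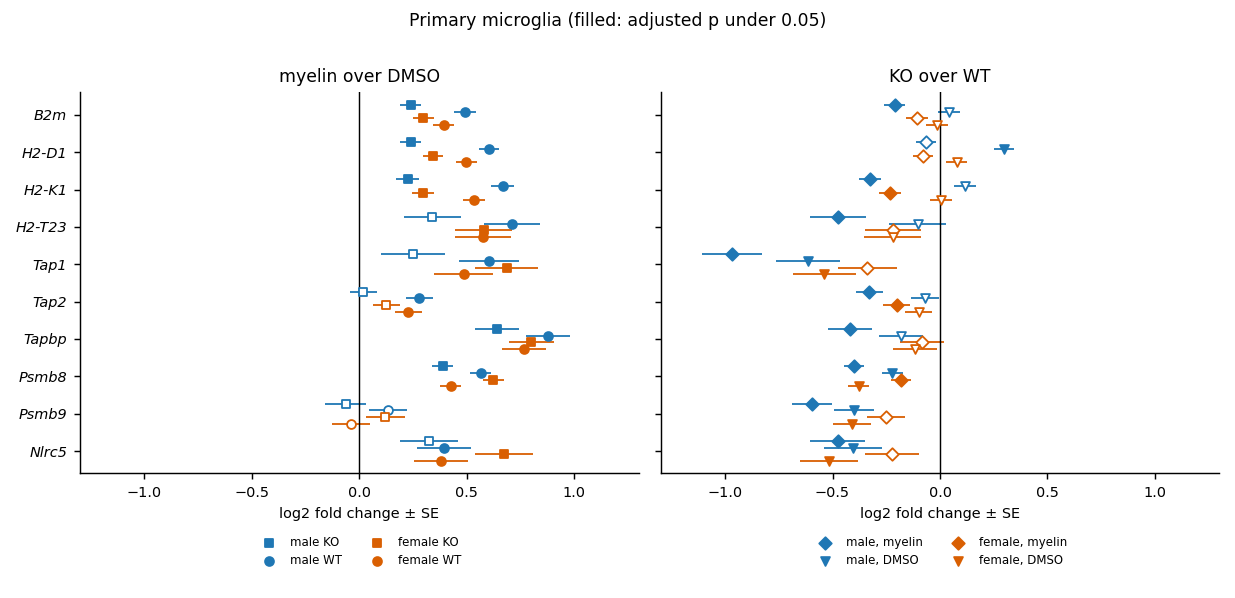
Log2 fold changes ± SE of the 10 genes in primary microglia, myelin over DMSO on the left and KO over WT on the right; blue marks are males, orange marks females, and filled marks have an adjusted p under 0.05. All called myelin changes lie right of 0, and all called KO changes lie left of 0 except that of H2-D1 in male DMSO cultures at 0.30.

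Markers of other cells also differed between genotypes. Border-associated macrophage markers, 5 of 5 found, summed to 855 to 1069 CPM in KO and 1157 to 1523 CPM in WT microglia, with 1 at 0 in female KO myelin and 1 in male WT myelin cultures. Choroid plexus markers, 5 of 5 detected, summed to 4.40 to 22.1 CPM in male KO and 127 to 223 CPM in male WT microglia, and to 44.3 to 533 CPM in female KO and 84.1 to 214 CPM in female WT microglia. Female KO replicate 1 held 533 CPM with DMSO and 492.8 CPM with myelin, and the other female KO libraries held 44.3 to 192 CPM. In males the choroid plexus markers separate the genotypes, and the macrophage markers do so in both sexes. Oligodendrocyte precursor markers, 3 of 3 detected, also did in females and in male myelin cultures. In females they summed to 84.6 to 98.6 CPM in KO and 55.5 to 59.4 CPM in WT DMSO cultures. With myelin the female sums were 109 to 116 CPM in KO and 67.4 to 73.8 CPM in WT microglia. The part of these markers and that of the genotype cannot be told apart. The part of the macrophage markers was not tested. With Ttr and Pdgfra levels as covariates 0 of 10 genes were called in male DMSO and 0 in male myelin cultures, where Tap1 in male myelin cultures was at -1.12 ± 0.34 (adjusted p = 0.123). The same fit called 2 genes, Psmb8 and Psmb9, in female DMSO and 3 in female myelin cultures. Without the replicate that stood highest, male KO DMSO replicate 3, 7 genes were called in the male DMSO comparison, and a fit of those groups alone called 3. In female DMSO cultures the count was 2 without WT replicate 1 or 3 or KO replicate 1, and in female myelin cultures it was 1 without WT replicate 3 or KO replicate 3. The female myelin count was 6 without the filter on low counts and 6 in a fit of the groups compared alone.

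Among the 22 other class I pathway genes tested, 2 were lower and 2 higher in KO in male DMSO cultures, 5 lower in female DMSO, 8 lower and 3 higher in male myelin, and 2 lower in female myelin cultures. Over all genes 9.32% were called lower and 11.6% higher in male DMSO cultures, so the 2 and 2 of 22 there were near those shares. In female DMSO cultures 6.48% of all genes were called lower. With myelin 10.6% were called lower and 10.1% higher in males, and 3.48% lower in females. The medians of these 22 changes were -0.03, -0.07, -0.26 and -0.12. Psme1, a subunit of the proteasome activator PA28, was lower in each, at -0.24 ± 0.06, -0.32 ± 0.05, -0.33 ± 0.05 and -0.18 ± 0.05. Psmb10, the remaining inducible proteasome subunit, was lower at -0.21 ± 0.06 in male DMSO, -0.24 ± 0.06 in female DMSO and -0.39 ± 0.06 in male myelin cultures. Of 20 tested regulators, Tlr7 itself included, 9, 10, 12 and 5 were lower in the same order, with medians of -0.14, -0.14, -0.16 and -0.14. The numbers called higher were 1, 1, 0 and 0. Irf1, Irf8 and Socs1, a feedback inhibitor of interferon signalling, were lower in all 4, with Irf1 at -0.33 ± 0.08, -0.26 ± 0.07, -0.72 ± 0.08 and -0.29 ± 0.08.

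Whether the response to myelin differed between genotypes was tested as an interaction. In males the response of 2 of 10 genes was smaller in KO than in WT microglia, against 2.56% of all genes called either way. H2-K1 rose with myelin by 0.22 in male KO and by 0.67 in male WT microglia, a difference of -0.44 ± 0.07 (adjusted p = 0.00189). H2-D1 rose by 0.24 in KO and by 0.60 in WT microglia, a difference of -0.36 ± 0.07 (adjusted p = 0.00423). Both were called in 18 of 18 alternatives. For H2-D1 the KO level was above the WT level with DMSO and overlapped it with myelin. B2m, at -0.25 ± 0.07 (adjusted p = 0.0725), missed the threshold, and all 10 differences were below 0, with a median of -0.26 against -0.02 over all genes. In females 0 of 10 were called by edgeR (0.919% of all genes), with 3 at an unadjusted p under 0.05 (H2-D1 and H2-K1 smaller in KO, Psmb8 larger) and 1 called by DESeq2. The female difference for H2-K1 was -0.24 ± 0.07 (adjusted p = 0.205), and whether it differed from the male one was not tested.

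A difference between the sexes in the KO effect was tested in the same way. With DMSO 0 of 10 genes were called by edgeR (7.53% of all genes), with 2 at an unadjusted p under 0.05 and 1 called by DESeq2. The smallest adjusted p was that of H2-D1, at -0.22 ± 0.07 (adjusted p = 0.0535) for female minus male. With myelin 1 of 10 was called (6.51%, so close to the share of all genes), Psmb8, whose KO effect was -0.18 in females and -0.40 in males, a difference of 0.22 ± 0.07 (adjusted p = 0.0335). That call was made in 5 of 18 alternatives. It was lost under DESeq2, without the filter on low counts and with the covariates, and also without male WT replicate 1, 2 or 3, male KO replicate 1, 2 or 3, female WT replicate 1 or 2 or female KO replicate 1 or 2, with a range of 0.10 to 0.24 over the alternatives. Tap1 had a larger difference, 0.63 ± 0.20 (adjusted p = 0.07), with a wider error.

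The TLR7 inhibitor in PSUK+ hippocampus gave no called change in the 10 genes. In males 0 of 10 were called by edgeR (0.105% of all 17128 genes), in females 0 (0.0876%), in the average 0 (0.0117%) and for the female minus male difference 0 (2.41%). In each of these 4 comparisons 0 of the 10 genes had an unadjusted p under 0.05, and DESeq2 called 0. The simulated data show a limit of these counts. For the male inhibitor comparison the fit called 16 of 110 genes given a log2 change of 0.5. It called 59 of 87 given a change of 1. For the male gardiquimod comparison it called 75 of 109 genes given a change of 0.5. Changes of 0.5 were thus mostly missed in the simulated male inhibitor comparison. The changed genes were drawn at random from all genes, so these shares are not those of the 10 genes. The female and averaged inhibitor comparisons were not simulated. The median of the 10 changes was 0.07 in males and -0.16 in females, against 0.01 and -0.01 over all genes.

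B2m was 69.4 to 83.6 CPM (median 81.2) in inhibitor males and 77.9, 77.1 and 56.8 CPM in control males. In females it was 68.6, 57.3, 94.8, 121 and 79.9 CPM with the inhibitor and 68.6, 95.5 and 91.9 CPM in controls. The groups overlapped in both sexes, and of the 4 groups the female inhibitor libraries spanned the widest range. The change was 0.17 ± 0.18 in males, with a 95% interval of -0.22 to 0.56, and -0.02 ± 0.18 in females, with an interval of -0.41 to 0.38. H2-K1 was 35.8, 19.6, 33.6, 51.3 and 34.1 CPM in inhibitor females and 40.5, 49.5 and 42.4 CPM in control females. Inhibitor replicate 4 was the highest library of both groups and replicate 2 the lowest. Its change of -0.34 ± 0.19 had an interval of -0.75 to 0.07 (adjusted p = 0.501). H2-D1 was 42.4, 31.2, 39.9, 75.8 and 40.8 CPM in inhibitor females and 46.6, 58.9 and 53.7 CPM in control females, where replicate 4 alone of the inhibitor libraries was above the controls.

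The remaining 7 genes overlapped between inhibitor and control in both sexes. Their changes ran over -0.24 (Nlrc5) to 0.35 (Psmb8) in males and -0.43 (Psmb9) to 0.14 (Tapbp) in females. The intervals were widest for Nlrc5, with 5 to 32 counts in an inhibitor female, at -0.96 to 0.84 in females. They were narrowest for Tapbp, at -0.24 to 0.26 in males. Female inhibitor replicate 2 also had the lowest summed microglia markers, 194 CPM, where the other 16 libraries ranged up to 362 CPM. Choroid plexus markers, 5 of 5 detected, summed to 3660.0 to 4669 CPM in inhibitor and 38.97 to 1576 CPM in control females, and to 87.3 to 4633 CPM in inhibitor and 3359 to 3537 CPM in control males. In females the choroid plexus markers separated the groups, so their part and that of the inhibitor cannot be told apart. A fit with Ttr as a covariate called 0 genes, which cannot decide this in females. Neuron markers, 3 of 3 detected, summed to 1830 to 2343 CPM in inhibitor and 2415 to 3469 CPM in control males. Oligodendrocyte precursor markers, 3 of 3 detected, summed to 82.0 to 91.0 CPM in inhibitor and 72.7 to 78.4 CPM in control males. Both separated the male groups, so their part and that of the inhibitor cannot be told apart either. The part of the microglia markers was not tested. Xist, a transcript high in females, was also present in the inhibitor males, at 0 to 11.1 CPM. It reached at most 0.127 CPM in control males and stood at 259 to 794 CPM in inhibitor females. The male transcript Ddx3y stood at 48.0 to 55.8 CPM in inhibitor males and 48.3 to 58.8 CPM in control males. The cause of the Xist counts in inhibitor males was not tested. Of 22 other class I pathway genes tested with the inhibitor, H2-T24 had the one call in these 4 comparisons, a female minus male difference of -1.22 ± 0.30 (adjusted p = 0.0413). Of 21 regulators, Rfxap, a subunit of a factor that binds the X box of MHC promoters, had the one call, also in that difference, at 0.94 ± 0.19 (adjusted p = 0.021). Over all genes 2.41% were called in that difference, so 1 of 22 and 1 of 21 were close to that share. The median inhibitor change of the 22 genes was 0.16 in males and -0.05 in females, and that of the 21 regulators was -0.06 in males and -0.01 in females.

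**Figure D4:**
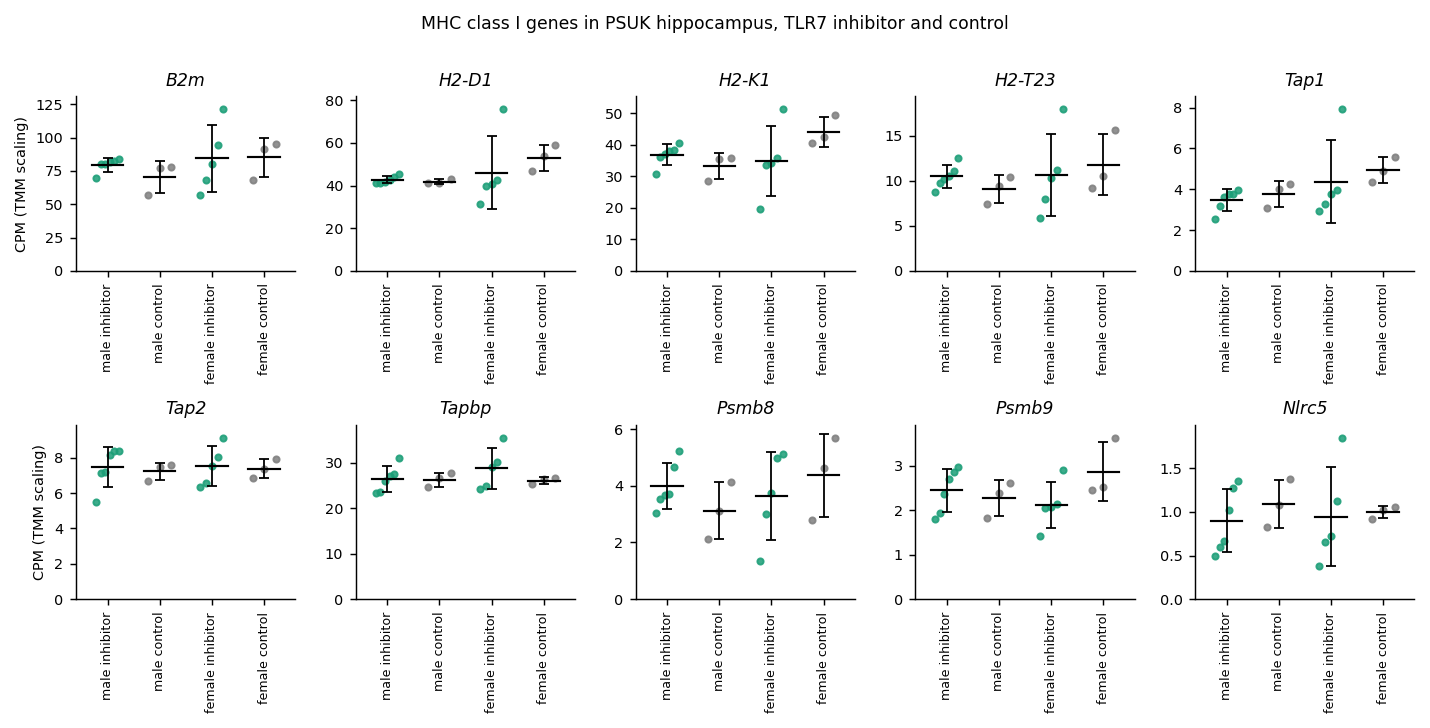
CPM of each gene in PSUK+ hippocampus libraries with the TLR7 inhibitor and controls by sex; each point is a library, ordered by value within its group, and bars are mean ± SD (6 and 3 male, 5 and 3 female libraries). Points overlap between inhibitor and control in every panel, and of the 4 groups female inhibitor libraries span the widest range for B2m, H2-D1 and H2-K1.

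**Figure D5:**
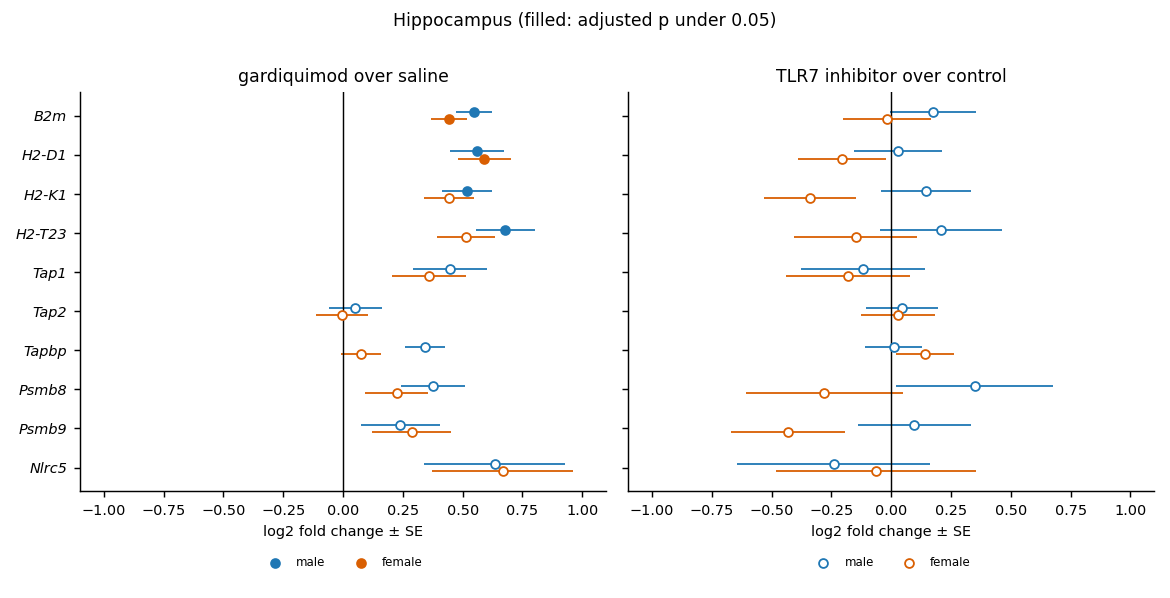
Log2 fold changes ± SE of the 10 genes in hippocampus, gardiquimod over saline on the left and inhibitor over control on the right; blue marks are males, orange marks females, and filled marks have an adjusted p under 0.05. The 4 chain genes lie at 0.44 to 0.68 with gardiquimod, and no inhibitor change is filled.

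The 10 genes varied together to different degrees. The correlation of each with the mean of the other 9, on standardised log2 CPM over all libraries of an experiment, is a description in which treatment, genotype and library scaling are shared. It was highest for H2-T23 in the 28 agonist libraries (Pearson r = 0.900) and for Psmb8 in the 24 microglia libraries (r = 0.963), and lowest for Tap2 in the agonist (r = 0.312) and Psmb9 in the microglia libraries (r = 0.553). Outside the class I and regulator lists, the genes most like the mean of the 10 were Ifit3, Ifit1, Bst2, Ifitm3 and Oasl2 in the agonist libraries (r = 0.920, 0.893, 0.887, 0.882 and 0.882). In the microglia libraries they were Zbp1, Phf11d, Ube2l6, Usp18 and Lgals3bp (r = 0.967, 0.966, 0.964, 0.959 and 0.958). In the 17 inhibitor libraries they were Ctsz, Cd74, Oasl2, Ifit3b and Pld4 (r = 0.881, 0.846, 0.832, 0.831 and 0.828).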

How the data were processed

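RNA was measured by 3′ mRNA sequencing in 69 libraries of 3 mouse experiments. The labels' protocols name the QuantSeq 3′ mRNA kit, read forward. The authors deposited raw counts per gene as whole numbers in 1 table for each experiment. The submitters' processing notes name DESeq2 1.38.3 and the mouse builds mm10 and GRCm38. For the aligner, the counter and the annotation, nothing is given in the sources used here. Each count column matched 1 sample by its title.

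The 10 genes, the other gene lists and the markers were chosen with earlier results of these data known. Counts were fitted in R 4.3.3 with edgeR 4.0.16 (filterByExpr, TMM scaling, 1 mean per group, robust quasi-likelihood F tests), separately for each experiment, with Benjamini-Hochberg adjustment over all genes tested in each of 20 comparisons. The 95% intervals use the residual degrees of freedom, and each SE is the fold change divided by the root of its F. The biological coefficient of variation was 0.132 for the agonist, 0.0507 for the microglia and 0.179 for the inhibitor libraries. No 2 libraries held identical counts. The text names all 10 genes, called genes of the class I and regulator lists, and, with the likeness measure, 5 genes of at least 4 CPM outside them in each experiment (log2 CPM with a prior count of 2). Alternatives were DESeq2 1.42.0, another scaling, no filter, fits of the compared groups alone, single libraries left out, covariates and a replicate block. The fit was tested on simulated data. Motifs were searched in RefSeq promoters of GRCm38.p6, and 3′ ends in GENCODE M21 transcripts.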

Additional observations from a re-analysis of the deposited data

Results flagged for a closer look

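In 60 sets of 5 to 7 libraries (1 gene in 1 group), 4 held a library far from the others of its group, where chance gives about 1 in 20, or 3. Female inhibitor replicate 4 stood apart for H2-D1, at 75.8 CPM, and for Tap1, at 7.92 CPM, both above the rest of its group. Male inhibitor replicate 1 stood below its group for B2m, at 69.4 CPM. Male saline replicate 2 stood above its group for Psmb9, at 5.26 CPM.

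A test of the difference between groups passed for 3 genes. The myelin response was smaller in male KO than in male WT microglia for H2-D1, at -0.36 ± 0.07, and for H2-K1, at -0.44 ± 0.07 (edgeR, adjusted p = 0.00423 and 0.00189). The KO effect on Psmb8 in myelin cultures differed between females and males by 0.22 ± 0.07 (adjusted p = 0.0335). This last call was made in 5 of 18 alternatives only, was lost under DESeq2, and 1 of 10 genes is close to the 6.51% of all genes called. The causes of these 7 values were not tested.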

How the results depend on the processing

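No fold change that was called turned its direction under an alternative. Of 200 values (10 genes in 20 comparisons), 65 were called, 30 of them under every alternative, and 112 were called under none.

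Leaving out single libraries gave 2 to 6 called genes for gardiquimod in males, 0 to 3 in females, 4 to 5 in the average and 0 for the sex difference. For myelin it gave 5 to 8 in male KO, 8 to 9 in female KO, 8 to 9 in male WT and 7 to 9 in female WT microglia. For KO against WT it gave 4 to 7 in male DMSO, 2 to 4 in female DMSO, 8 to 9 in male myelin and 1 to 3 in female myelin cultures. For the genotype difference of the myelin response it gave 2 to 3 in males and 0 in females, for the sex difference of the KO effect 0 to 1 with DMSO and 0 to 2 with myelin, and 0 in each inhibitor comparison.

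DESeq2 called 4 genes for gardiquimod in females, 1 for the female myelin response difference, and 1 with DMSO and 0 with myelin for the sex difference of the KO effect. No filter gave 1 for gardiquimod in females, 6 for KO in female myelin cultures, 2 for the female response difference, and 1 with DMSO and 0 with myelin for the sex difference. Fits of the compared groups alone gave 3 for myelin in male KO, 3 for KO in male DMSO, 6 for KO in female myelin cultures, 1 for the female response difference, and 1 with DMSO and 2 with myelin for the sex difference. With Ttr as a covariate 1 was called for gardiquimod in each sex. With Ttr and Pdgfra as covariates, KO gave 0 in male DMSO, 0 in male myelin and 2 in female DMSO cultures, myelin gave 2 in female KO microglia, and the sex difference with myelin gave 0. The causes were not tested.

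The replicate block called 1 gene for the sex difference of the KO effect with DMSO, and 1 with myelin. For myelin it called 5 in male KO, 8 in female KO, 9 in male WT and 8 in female WT microglia, and for KO it called 4 (males) and 3 (females) with DMSO and 9 and 3 with myelin. The numbers were not taken as pairs, since not every same-numbered pair correlated above 0.1. Of same-numbered pairs, 3 of 12 within a sex and genotype and 6 of 72 across them did, against 1 of 24 and 0 of 144 with different numbers, and 12 of 24 libraries correlated best with their own number. No paired analysis was possible in hippocampus because its numbers follow sample order.

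Depth limited Nlrc5 most in hippocampus, with 5 to 62 counts in a library.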

Other observations

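The constitutive proteasome subunit genes, whose products the inducible ones replace, rose with myelin in all 4 comparisons. Psmb5 rose by 0.42 ± 0.04 in male KO, 0.38 ± 0.04 in male WT, 0.41 ± 0.04 in female KO and 0.35 ± 0.04 in female WT microglia. Psmb6 rose by 0.43, 0.53, 0.57 and 0.53, and Psmb7 by 0.43, 0.45, 0.44 and 0.44 in the same order. Psmb6 is the subunit that Psmb9 replaces, and Psmb9 was called in none of the 4.

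Receptors on responding cells were tested from a list of 10 genes, of which 4 passed the filter in microglia. Klra2 was not called between genotypes. Its KO over WT change was -0.50 ± 0.25 (edgeR, adjusted p = 0.16) in male and -0.54 ± 0.24 (adjusted p = 0.138) in female DMSO cultures. Pirb, an inhibitory receptor that binds class I molecules, was higher in KO than in WT microglia by 0.39 ± 0.05 in male DMSO, 0.26 ± 0.05 in female DMSO and 0.17 ± 0.05 in male myelin cultures. Its value in female myelin cultures was 0.03 ± 0.05 (adjusted p = 0.797). Lilrb4a and Lilr4b, which are near-identical copies and so uncertain singly, were higher in KO DMSO microglia by 0.26 ± 0.07 and 0.32 ± 0.04 in males and by 0.29 ± 0.07 and 0.28 ± 0.04 in females. In female myelin cultures Lilr4b was higher in KO by 0.27 ± 0.04 (edgeR, adjusted p = 0.000156), and Lilrb4a, at 0.23 ± 0.07 (adjusted p = 0.0642), was not called. In male myelin cultures Lilrb4a, at -0.09 ± 0.07, and Lilr4b, at -0.05 ± 0.04, were not called. Of all 14468 genes, 1679 were called higher in KO in male DMSO, 784 in female DMSO, 1457 in male myelin and 550 in female myelin cultures.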
